A study of Mus musculus with 36 samples.

Results

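Trem2, Tyrobp, Hcst, Syk, Plcg2 and Inpp5d, 6 of the 36172 genes in the deposited table, were followed through all 36 RNA-seq libraries of mouse hippocampus. They were taken by gene symbol, as the receptor Trem2 and the core of the signalling chain attached to it, and all 6 were found. Every animal carried Cx3cr1-NuTRAP, in which a tamoxifen-inducible cre recombinase driven by the Cx3cr1 gene switches on a GFP tag on ribosomes in microglia and related macrophages. Young early-induced animals (6 months, 5 females and 5 males), old early-induced animals (22 months, 7 females and 5 males) and old late-induced animals (22 months, 5 females and 2 males) each gave 1 input library, which is RNA of the whole tissue lysate. The 7 old late-induced animals also gave 1 library each of RNA pulled down with the tagged ribosomes (translating ribosome affinity purification, TRAP). Early and late refer to the age at tamoxifen induction, whose effect on the model was the subject of the study. No TRAP library from an early-induced mouse is used here, and p-values measure the spread between animals. The main TRAP fit does not pair the TRAP and input libraries of an animal.

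Trem2 is a surface receptor of microglia that binds lipids, apolipoproteins and other ligands. It has no signalling motif of its own and passes its signal through the membrane adaptor Tyrobp, also called DAP12, whose cytoplasmic ITAM motif recruits the tyrosine kinase Syk once Src family kinases have phosphorylated it. Hcst, also called DAP10, is a second adaptor that pairs with some of the same receptors and recruits PI3 kinase. Downstream of Syk, the phospholipase Plcg2 cleaves a membrane phosphoinositide to produce calcium and protein kinase C signals. Inpp5d, the lipid phosphatase SHIP1, removes the phosphate that PI3 kinase adds and so opposes the pathway. Variants in the human counterparts of several of these genes are linked to the risk of Alzheimer's disease, and loss of TREM2 or TYROBP causes Nasu-Hakola disease.

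By the positions listed in the deposited table, with mm10 named as the build in the submitters' processing notes, Trem2 lies on chromosome 17 (48346401 to 48352276, + strand), Syk on chromosome 13 (52583437 to 52648792, + strand), Plcg2 on chromosome 8 (117498291 to 117635142, + strand) and Inpp5d on chromosome 1 (87620312 to 87720508, + strand). Tyrobp (30413788 to 30417579, + strand) and Hcst (30417712 to 30419854, - strand) are neighbours on chromosome 7 whose 3′ ends face each other across 132 bases. No member overlaps another annotated gene. Because read strand is not given in the sources used here, reads running past an end of Tyrobp or Hcst could not be assigned by strand.

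The RefSeq promoter table of GRCm38.p6 held 5 of the 6 genes. The 250 bases before the RefSeq start are shown for Trem2, the receptor whose RNA was higher in old animals, and for Inpp5d and Plcg2, whose RNA differed little or not detectably between the same groups. Capitals mark GAGGAA or GGAAGT on either strand, the purine-rich cores that ETS family factors such as the microglial factor PU.1 are known to bind. The motifs overlap where the letters GAGGAAGT occur.
Trem2: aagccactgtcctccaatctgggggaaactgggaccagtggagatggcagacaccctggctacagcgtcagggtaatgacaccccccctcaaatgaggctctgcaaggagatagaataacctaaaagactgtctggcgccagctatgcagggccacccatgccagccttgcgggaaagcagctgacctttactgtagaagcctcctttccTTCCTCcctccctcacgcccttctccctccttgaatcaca
Inpp5d: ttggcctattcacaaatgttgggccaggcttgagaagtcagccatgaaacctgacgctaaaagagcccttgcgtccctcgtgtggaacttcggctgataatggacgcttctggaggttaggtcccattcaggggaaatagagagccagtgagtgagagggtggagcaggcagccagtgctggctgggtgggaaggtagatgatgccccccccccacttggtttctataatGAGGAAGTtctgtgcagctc
Plcg2: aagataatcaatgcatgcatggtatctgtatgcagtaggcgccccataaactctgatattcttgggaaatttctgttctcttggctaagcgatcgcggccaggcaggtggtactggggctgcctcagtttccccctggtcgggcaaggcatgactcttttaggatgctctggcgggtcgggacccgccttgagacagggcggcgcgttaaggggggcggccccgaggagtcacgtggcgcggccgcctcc
These windows are at chr17:48346151-48346400, chr1:87620062-87620311 and chr8:117498025-117498274, all on the + strand. The Trem2 window held 1 match, GAGGAA on the opposite strand 35 to 40 bases before the start. The Inpp5d window held both motifs in 1 overlapping run 13 to 20 bases before the start, and the Plcg2 window held neither. Among all 32851 promoter windows of the same length, 23.3% held GAGGAA, 19.7% held GGAAGT and 36.7% held at least 1 of them, so a match of this kind is common. These matches describe the sequence and are not binding sites.

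Library totals in estimated counts ranged from 12.9 to 20.4, in units of 1e6. Levels are given as CPM (counts per 1e6), estimated counts scaled by the library's effective size. In the inputs, Trem2 had 135 to 575 estimated counts per library, Tyrobp 145 to 569, Inpp5d 161 to 367, Plcg2 77.0 to 156 and Syk 75.0 to 164, whereas Hcst had 0 to 8. In TRAP the same genes had 929 to 11823 counts and Hcst 30.7 to 88.8. The summed level of 12 microglial markers, which include P2ry12, Tmem119 and Csf1r, ranged from 385 to 436 CPM in young inputs, 470 to 553 in old early inputs, 493 to 643 in old late inputs and 8730 to 12787 in TRAP, with none of the 12 at 0 in any group. Each group also occupied its own run of positions in the submitters' sample numbering, 1 to 23 for old early, 25 to 38 for old late and 39 to 57 for young, so the group and anything that follows this order cannot be told apart.

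Trem2 RNA was lowest in young hippocampus and higher in both old groups. The 10 young inputs ranged from 8.49 to 14.6 CPM with a median of 10.5. The 12 old early inputs ranged from 18.3 to 26.8 CPM with a median of 19.7, and the 7 old late inputs from 19.03 to 32.9 CPM with a median of 24.1. Every old library lay above every young library. The means were 11.2 ± 1.91 (SD, n = 10), 20.8 ± 2.80 (SD, n = 12) and 25.3 ± 4.84 CPM (SD, n = 7), in that order. With edgeR's quasi-likelihood test and Benjamini-Hochberg adjustment over all genes, the log2 fold change against young was 0.91 ± 0.10 (SE, adjusted p 8.89e-08) in old early animals, a 1.87-fold difference. In old late animals it was 1.19 ± 0.11 (SE, edgeR adjusted p 4.71e-09), a 2.27-fold difference.

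Tyrobp, the adaptor through which Trem2 signals, followed nearly the same course. Its level ranged from 8.36 to 11.8 CPM in young inputs with a median of 10.7, from 15.9 to 23.9 CPM in old early inputs with a median of 19.8, and from 17.2 to 32.6 CPM in old late inputs with a median of 24.6. Again no old library overlapped the young range. The means were 10.5 ± 1.16 (SD, n = 10), 20.3 ± 2.52 (SD, n = 12) and 24.4 ± 5.71 CPM (SD, n = 7). The log2 fold change against young was 0.95 ± 0.09 (SE, edgeR adjusted p 3.93e-09) in old early animals and 1.19 ± 0.10 (SE, edgeR adjusted p 3.03e-10) in old late animals, or 1.93-fold and 2.28-fold. Both comparisons use the same young libraries, so they do not support each other independently. The young animals were induced early, so in old late against young inputs age and induction cannot be told apart. Old early and young animals were both induced early, so between them age and time since induction cannot be told apart.

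**Figure D1:**
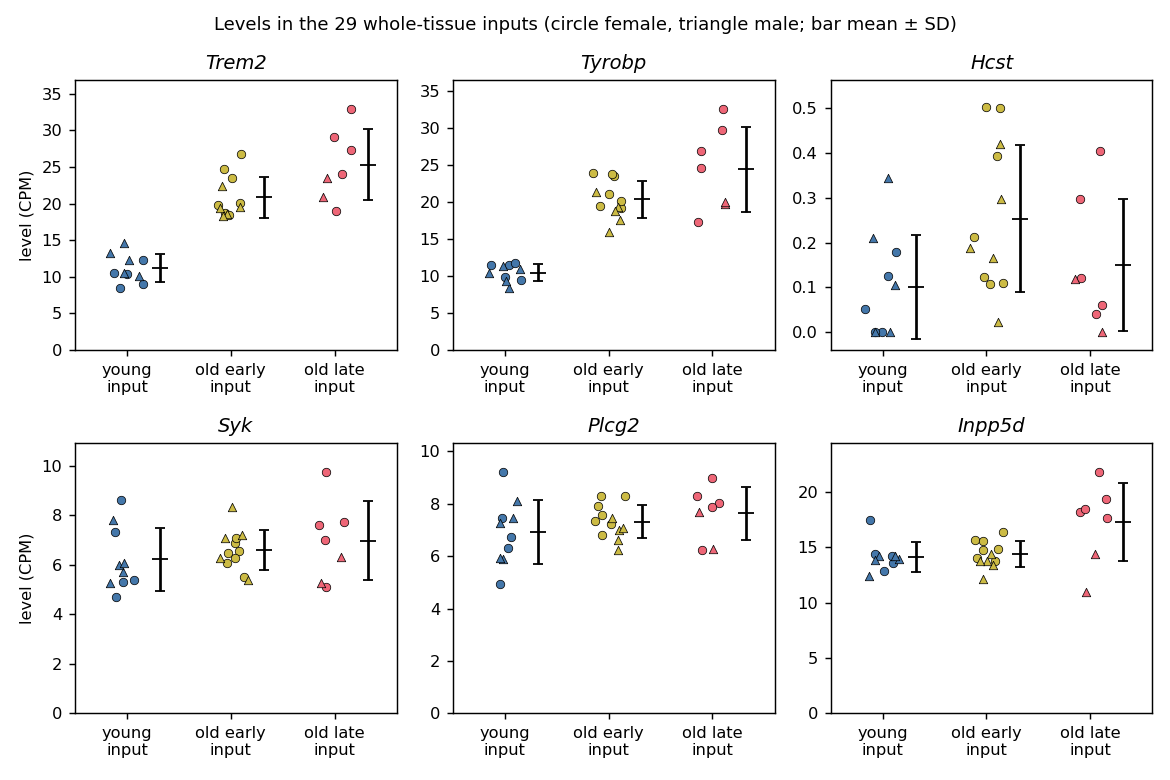
Level in CPM of each of the 6 genes (vertical axis) in the 29 input libraries by group, with circles for females, triangles for males and bars for the mean ± SD. Trem2 and Tyrobp lie above the young range in all 19 old libraries, whereas Syk, Plcg2 and Inpp5d overlap between young and old, and Hcst stays below 0.51 CPM.

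The genes that carry or oppose the signal inside the cell behaved differently. Syk ranged from 4.72 to 8.64 CPM in young inputs with a median of 5.85, from 5.39 to 8.33 CPM in old early inputs with a median of 6.54, and from 5.11 to 9.75 CPM in old late inputs with a median of 7.02. The 3 ranges overlapped, with 1 old late library above the highest young one. Its log2 fold change against young was 0.09 ± 0.11 (SE, edgeR adjusted p 0.571) in old early and 0.17 ± 0.13 (SE, edgeR adjusted p 0.31) in old late animals. The 95% interval ran from -0.12 to 0.31 in old early and from -0.08 to 0.42 in old late animals, so an increase as large as that of Trem2 lies outside both intervals.

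Plcg2 ranged from 4.95 to 9.22 CPM in young, 6.25 to 8.31 CPM in old early and 6.26 to 8.98 CPM in old late inputs, with medians of 6.99, 7.28 and 7.90. The old libraries all fell inside the young range. The log2 fold changes were 0.08 ± 0.09 (SE, edgeR adjusted p 0.552) and 0.13 ± 0.10 (SE, edgeR adjusted p 0.328), with 95% intervals of -0.09 to 0.25 and -0.07 to 0.33.

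Inpp5d ranged from 12.4 to 17.5 CPM in young and from 12.1 to 16.4 CPM in old early inputs, with medians of 14.1 and 14.2. Old early animals did not differ detectably from young ones, differing by 0.01 ± 0.07 log2 (SE, edgeR adjusted p 0.91) and a 95% interval of -0.12 to 0.15. In old late inputs Inpp5d ranged from 10.96 to 21.8 CPM with a median of 18.2, and 5 of the 7 libraries, all from females, lay above the highest young library. Against young the log2 fold change was 0.25 ± 0.08 (SE, edgeR adjusted p 0.0162), or 1.19-fold. This call was lost when old late replicate 6 (edgeR adjusted p 0.0532) or young replicate 8 (0.0515) was left out, and when only the old late and young inputs entered the fit (0.0564).

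In old early against young inputs, 2 of the 5 members tested were called higher and 0 lower, where 13% of all 14948 genes tested were called higher and 12.6% lower. In old late against young inputs, 3 of the 5 were called higher and 0 lower, against 17% of all genes called higher and 17.5% lower. Hcst did not pass the filter on low counts in the inputs. It had 0 counts in 4 of 10 young, 0 of 12 old early and 1 of 7 old late inputs, and summed to 15.5, 47.4 and 17.8 estimated counts. The pooled rate ratio was 2.65 for old early against young (95% exact interval 1.45 to 5.10) and 1.64 for old late against young (0.779 to 3.49). These intervals cover counting error only. Without the filter, Hcst was not called against young in either old group (edgeR adjusted p 0.128 and 0.615).

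Ratios within each library show the same values free of library scaling. They were chosen after the values were seen and are given as a description, without p-values. The ratio of Trem2 to Syk CPM ranged from 1.22 to 2.56 in young inputs (median 1.78), from 2.58 to 3.85 in old early inputs (median 3.13) and from 2.46 to 5.33 in old late inputs (median 3.94). The ratio of Trem2 to Inpp5d had medians of 0.760, 1.45 and 1.50 in the same order. The ratio of Trem2 to Tyrobp ranged from 0.719 to 1.75 in young inputs (median 1.05), from 0.838 to 1.27 in old early inputs (median 0.998) and from 0.979 to 1.19 in old late inputs (median 1.01). The median ratio of receptor to adaptor CPM was thus near 1 in all 3 groups, without correction for transcript length. Per kilobase, Tyrobp averaged 18.5, 36.1 and 43.3 CPM and Trem2 10.3, 19.2 and 23.2 CPM in the same order.

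In single libraries Trem2 and Tyrobp did not always run together. Among young inputs, replicate 1 had the highest Trem2 (14.6 CPM) and the lowest Tyrobp (8.36 CPM), and replicate 9 had the lowest Trem2 (8.49 CPM) and the highest Tyrobp (11.8 CPM). Among old late inputs, replicate 5 had the highest level of both genes (32.9 and 32.6 CPM) and replicate 7 the lowest of both (19.03 and 17.2 CPM). Whether the groups differ in this was not tested.

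**Figure D2:**
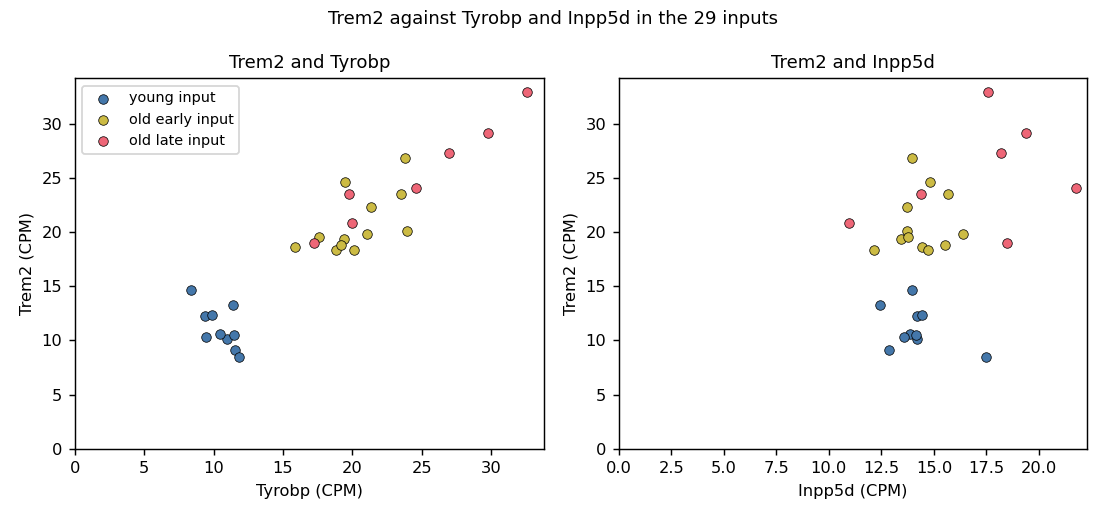
Trem2 level in CPM (vertical axes) against Tyrobp (left) and Inpp5d (right) in CPM, 1 point for each of the 29 inputs, coloured by group. Trem2 and Tyrobp separate old from young on both axes, while the Inpp5d level of most old early libraries falls in the young range of 12.4 to 17.5 CPM.

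Levels were divided by transcript length to compare the genes with each other. In every group the order per kilobase was Tyrobp, Trem2, Inpp5d, Plcg2, Syk and Hcst. In young inputs Tyrobp averaged 18.5 ± 2.06 CPM per kb, Trem2 10.3 ± 1.76, Inpp5d 2.86 ± 0.27, Plcg2 1.61 ± 0.29, Syk 1.16 ± 0.24 and Hcst 0.23 ± 0.26 CPM per kb (SD, n = 10). The ranges of Plcg2 and Syk overlapped in all 4 groups, and those of Syk and Hcst overlapped in old early inputs. All other neighbours in the order were separate. In TRAP, Tyrobp reached 961 ± 249 CPM per kb and Trem2 469 ± 139 CPM per kb, while Inpp5d averaged 59.5 ± 13.7, Plcg2 23.5 ± 4.49, Syk 17.5 ± 3.32 and Hcst 7.74 ± 3.22 CPM per kb (SD, n = 7). Length is that of the longest principal transcript in the GENCODE M21 annotation of GRCm38.

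In whole tissue, fewer cells of a type and less RNA per cell cannot be told apart, and the summed level of the microglial markers was itself higher in old inputs. The members were therefore also tested relative to the summed counts of the 12 microglial markers in each library. On this scale Trem2 averaged 2.74 ± 0.44 in young (SD, n = 10), 4.10 ± 0.47 in old early (SD, n = 12) and 4.43 ± 0.50 in old late inputs (SD, n = 7), in CPM per 100 CPM of markers. Tyrobp averaged 2.57 ± 0.29, 3.99 ± 0.36 and 4.27 ± 0.67 on this scale. All old libraries again lay above all young ones for both genes. Trem2 was higher by 0.58 ± 0.08 log2 in old early animals (SE, edgeR adjusted p 3.32e-07) and by 0.70 ± 0.10 in old late animals (SE, adjusted p 5.83e-08). Tyrobp was higher by 0.62 ± 0.07 (SE, edgeR adjusted p 1.57e-08) and by 0.70 ± 0.08 (SE, adjusted p 5.4e-09).

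The intracellular genes went the other way on this scale. Inpp5d fell by 0.31 ± 0.07 log2 in old early (SE, edgeR adjusted p 0.000377) and by 0.23 ± 0.09 in old late animals (SE, edgeR adjusted p 0.0155). Plcg2 fell by 0.25 ± 0.09 (SE, edgeR adjusted p 0.0149) and by 0.35 ± 0.11 (SE, edgeR adjusted p 0.00338). Syk had a log2 fold change of -0.23 ± 0.11 in old early animals (SE, edgeR adjusted p 0.0565) and fell by 0.30 ± 0.13 in old late animals (SE, edgeR adjusted p 0.0297). Syk was called lower in old early animals too with the geometric mean of the markers (-0.25, edgeR adjusted p 0.0343) or without Cx3cr1, Csf1r and Aif1 among them (-0.26, 0.0329). The old late call of Syk was lost in 6 fits that left out 1 library (edgeR adjusted p up to 0.0949), that of Inpp5d without old late replicate 1 or 2 (0.0531 and 0.0784), and the old early call of Plcg2 without young replicate 8 (0.0647). These directions are relative to the markers, and relative to all RNA the same genes had log2 fold changes between 0.01 and 0.25. Of all genes tested, 1.61% were called higher and 73.9% lower relative to the markers in old early animals, and 1.53% higher and 78.5% lower in old late animals, so a lower call is the usual case on this scale and a higher call is not. Over all genes tested the median on this scale was -0.32 and -0.46 log2.

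**Figure D3:**
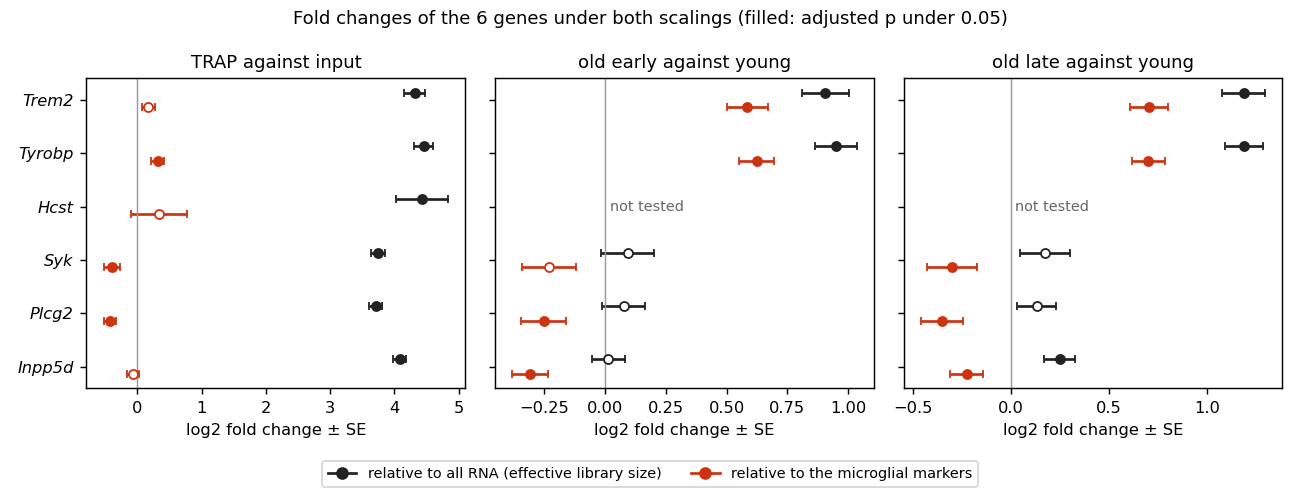
Log2 fold change ± SE (horizontal axes) of each gene in 3 comparisons, in black relative to all RNA and in red relative to the summed counts of 12 microglial markers, with filled points for an edgeR adjusted p under 0.05. In old early and old late against young inputs, Trem2 and Tyrobp stay above 0 on both scales, from 0.58 to 1.19. In the same comparisons Syk, Plcg2 and Inpp5d lie between -0.35 and -0.23 relative to the markers.

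Markers of other cells were read beside these results. The neutrophil markers summed to 0.603 to 2.50 CPM in young, 0.779 to 20.6 CPM in old early and 0.863 to 4.89 CPM in old late inputs, with the highest value in old early replicate 5, which also had the highest blood sum (2273 CPM). Blood markers had medians of 193, 250 and 522 CPM in young, old early and old late inputs, with ranges of 143 to 346, 130 to 2273 and 274 to 719 CPM. Choroid plexus markers had medians of 1915, 103 and 1927 CPM and varied from 44.2 to 3985 CPM over the inputs. Without old early replicate 5, Trem2 was higher in old early animals than in young ones by 0.89 log2 and Tyrobp by 0.92 log2 (edgeR adjusted p 2.42e-07 and 1.21e-08). T and NK cell markers summed to 0.464 to 1.47 CPM in young, 0.590 to 2.83 CPM in old early and 0.576 to 3.19 CPM in old late inputs, and B cell markers to at most 1.51 CPM, with Pax5 at 0 in all old late inputs. Border macrophage markers summed to 29.3 to 41.7, 27.3 to 42.6 and 23.4 to 54.5 CPM and monocyte markers to 13.1 to 18.3, 9.80 to 17.1 and 10.8 to 16.3 CPM in young, old early and old late inputs. Oligodendrocyte markers summed to 2706 to 4240, 3436 to 5041 and 3674 to 6251 CPM in the same order. Their part in the results was not tested.

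Old late and old early inputs, which differ in the age at induction, were compared directly. None of the 5 members tested was called. Trem2 differed by 0.28 ± 0.10 log2 (SE, edgeR adjusted p 0.278), Inpp5d by 0.23 ± 0.08 (SE, edgeR adjusted p 0.221) and Tyrobp by 0.24 ± 0.09 (SE, edgeR adjusted p 0.295). The ranges overlapped for each of them, with 3 of 7 old late libraries above the highest old early library for Trem2, 4 for Tyrobp and 5 for Inpp5d. Syk and Plcg2 differed by 0.08 ± 0.12 and 0.05 ± 0.10 log2 (SE, edgeR adjusted p 0.837 and 0.866). Across all genes 0.0334% were called in either direction by edgeR, DESeq2 called 30 higher and 28 lower, and 1736 had an unadjusted p under 0.05, among them Trem2, Tyrobp and Inpp5d (0.0108, 0.0127 and 0.00428). Relative to the microglial markers, Trem2 differed by 0.12 ± 0.09, Tyrobp by 0.08 ± 0.08 and Inpp5d by 0.08 ± 0.08 log2 (SE, edgeR adjusted p 0.309, 0.459 and 0.462), and no member was called where 25.1% of all genes were. The sexes were not balanced between these groups, and with females only the Inpp5d difference was 0.36 (edgeR adjusted p 0.033).

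Sex was compared over all 29 inputs with group in the model. Female means of Tyrobp were 10.8, 21.6 and 26.2 CPM and male means 10.1, 18.6 and 19.8 CPM in young, old early and old late inputs. For Inpp5d the female means were 14.5, 14.98 and 19.1 CPM and the male means 13.7, 13.5 and 12.7 CPM. Males were thus lower in each group, but the log2 differences of -0.21 ± 0.08 for Tyrobp (SE, edgeR adjusted p 0.319) and -0.21 ± 0.06 for Inpp5d (SE, edgeR adjusted p 0.234) were not called. Trem2, Plcg2 and Syk differed by -0.03, -0.10 and -0.04 log2 (edgeR adjusted p 0.928, 0.65 and 0.905). In all, 0.174% of genes were called between the sexes by edgeR (1632 at an unadjusted p under 0.05), and by DESeq2 21 were higher and 42 lower in males.

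For Trem2 the young males had the higher mean (12.2 ± 1.86 against 10.1 ± 1.48 CPM in females, SD, n = 5 each) and the old early males the lower (19.6 ± 1.58 CPM, n = 5, against 21.7 ± 3.26 CPM in females, n = 7, SD). The interaction of age and sex in early-induced inputs was -0.40 ± 0.16 log2 (SE) with an unadjusted p of 0.0239 and an edgeR adjusted p of 0.262, so a difference of the age effect between sexes was not called. The interactions of the other 4 members tested ran from -0.15 to 0.13 log2. By edgeR 0% of all genes were called for this interaction, 2272 of 14547 had an unadjusted p under 0.05, and DESeq2 called 5 higher and 14 lower. Without old early replicate 6, edgeR called 143 genes higher and 380 lower of 14520.

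TRAP libraries were compared with the inputs of the same 7 old late-induced animals to ask how strongly the pulldown enriched these transcripts. All 6 members were far higher in TRAP in each animal. Trem2 was 369, 392, 403, 450, 524, 718 and 721 CPM in the 7 TRAP libraries, against 19.03 to 32.9 CPM in the inputs. The ratio of TRAP to input ran from 17.1 to 24.6 across animals with a median of 19.2. Tyrobp ranged from 390 to 742 CPM in TRAP, and its ratio from 19.5 to 24.4 with a median of 21.9. Inpp5d ranged from 218 to 405 CPM in TRAP with ratios of 13.3 to 20.9 and a median of 15.8.

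For the kinase and the phospholipase the ratios were lower. Plcg2 ranged from 79.2 to 134 CPM in TRAP with ratios of 10.7 to 16.7 and a median of 12.998. Syk ranged from 71.1 to 122 CPM with ratios of 10.5 to 17.6 and a median of 13.3. For comparison, the summed microglial markers had ratios of 15.3 to 20.9 with a median of 17.6. Hcst rose from at most 0.403 CPM in the inputs to 1.78 to 5.39 CPM in TRAP, with counts of 361 against 18 in all and a pooled rate ratio of 22.2 (95% exact interval 13.8 to 37.9, counting error only).

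In edgeR's quasi-likelihood test the log2 fold change in TRAP was 4.45 ± 0.15 for Tyrobp (SE, adjusted p 8.18e-14), 4.43 ± 0.41 for Hcst (SE, adjusted p 7.58e-08) and 4.32 ± 0.16 for Trem2 (SE, adjusted p 4.54e-13). It was 4.08 ± 0.10 for Inpp5d (SE, edgeR adjusted p 3.91e-15), 3.74 ± 0.11 for Syk (SE, adjusted p 2.24e-14) and 3.71 ± 0.10 for Plcg2 (SE, adjusted p 9.42e-15). The 6 members tested were thus all called higher, where 30.4% of 14596 genes were called higher and 28.8% lower. With upper-quartile scaling 3280 genes were higher and 6372 lower, and with plain library size 3564 and 5748, against 4442 and 4198 here. Hcst passed the filter through its TRAP libraries alone, so its call could only go that way. The fit here did not pair the animals, and with the animal as a replicate block no member's call changed.

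**Figure D4:**
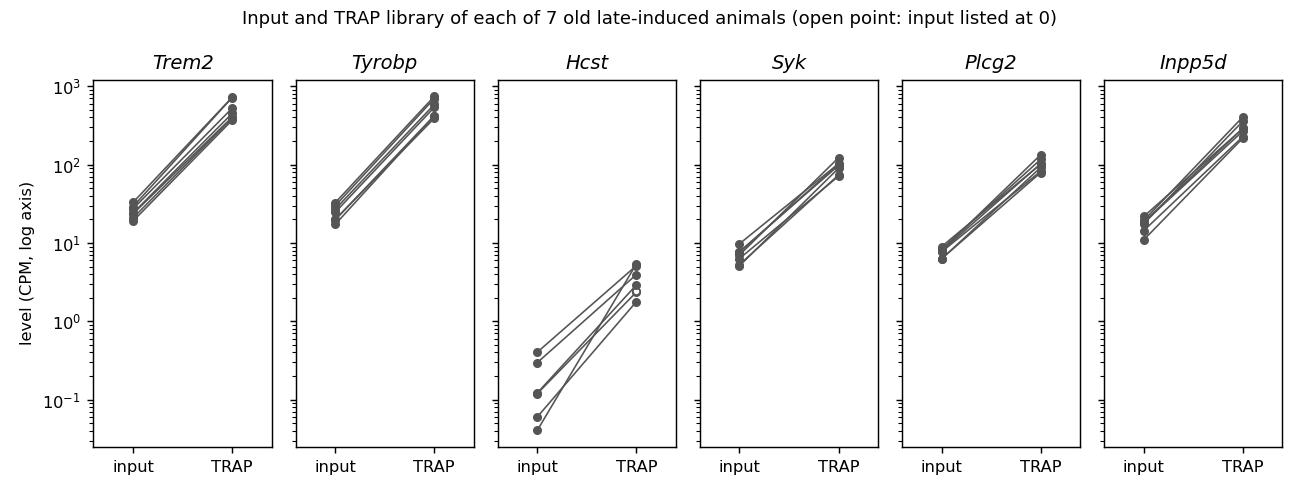
Level in CPM on a log axis (vertical) in the input and TRAP library of each of the 7 old late-induced animals, joined by a line, for the 6 genes. Every line rises, by 10.5-fold or more, and 1 animal whose input was at 0 for Hcst has only its TRAP value drawn as an open point.

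Relative to the microglial markers, Tyrobp was called higher in TRAP and Plcg2 and Syk lower. Tyrobp was higher in TRAP by 0.32 ± 0.10 log2 (SE, edgeR adjusted p 0.00467). Plcg2 fell by 0.43 ± 0.10 (SE, edgeR adjusted p 0.00025), with no overlap between TRAP and input libraries, and Syk fell by 0.40 ± 0.13 (SE, edgeR adjusted p 0.00502). Trem2 (0.17 ± 0.10), Inpp5d (-0.06 ± 0.09) and Hcst (0.33 ± 0.44) were not called in this fit, which does not pair the animals (SE, edgeR adjusted p 0.103, 0.5261 and 0.461). Trem2 was nevertheless higher in TRAP than in the input of the same animal in 7 of 7 animals, and with the animal as a replicate block, a fit added after the data were seen, it was called higher at 0.17 log2 (edgeR adjusted p 0.0197). The block changed no other member's call. Trem2 was also called higher when Cx3cr1, Csf1r and Aif1 were left out of the markers (0.23, edgeR adjusted p 0.0264) or without TRAP replicate 7 (0.22, adjusted p 0.0371). On this scale 0.199% of all genes were called higher and 98% lower, and the median log2 fold change was -4.15.

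The TRAP libraries still held RNA of other cells. The neuronal markers summed to 4622 to 5967 CPM in TRAP against 5789 to 6386 CPM in the inputs of the same animals, the astrocyte markers to 2013 to 2785 against 2729 to 3135 CPM, and the oligodendrocyte markers to 1133 to 2880 against 3674 to 6251 CPM. Border macrophage markers summed to 388 to 652 CPM in TRAP against 23.4 to 54.5 CPM in input, so these Cx3cr1-expressing cells were enriched as well. Monocyte markers were at 6.87 to 11.7 CPM in TRAP and 10.8 to 16.3 CPM in input, neutrophil markers at 0.232 to 1.07 and 0.863 to 4.89 CPM with Camp at 0 in TRAP, and T and NK cell markers at 0.492 to 3.30 and 0.576 to 3.19 CPM. B cell markers summed to 4.21 to 5.46 CPM in TRAP against 0.239 to 1.03 CPM in input, with Ms4a1 at 0 in TRAP. The share of each member that came from border macrophages was not tested.

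Another 80 genes of the pathway, in 11 lists, were read in the same tests. They were chosen by their known roles, with earlier results of these data known. In TRAP 67 of them were tested, 52 were called higher and 5 lower, or 77.6% and 7.46%, beside 30.4% and 28.8% of all genes, with a median log2 fold change of 1.68 against -0.02 over all genes. Cd300lb and Cd300lf passed the filter on low counts only through TRAP, and without them 50 of 65 were called higher. Among the lower ones, named after their values were seen, were Lck (-0.73), Clu (-0.66), Fyn (-0.25) and Sos1 (-0.18), genes that neurons, astrocytes or lymphocytes are also known to express. In old early against young inputs 66 were tested, 27 were called higher and 8 lower, with a median of 0.08 against 0.01 over all genes. These are 40.9% and 12.1%, beside 13% and 12.6% of all genes. In old late against young inputs 29 were higher and 13 lower, or 43.9% and 19.7% beside 17% and 17.5% of all genes, with a median of 0.11 against 0.01. The share lower was thus near that of all genes in both comparisons. Among the higher calls in both comparisons were Fgr, Treml2, Pirb and Lilrb4a, which averaged 0.0664, 0.347, 0.223 and 0.165 CPM in young inputs. These genes could not pass the filter on low counts without the old libraries, so a lower call was hardly possible for them. None was called between old late and old early inputs (edgeR, where 5 of 14948 genes were called), between the sexes or in the interaction of age and sex.

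All 4 genes tested from the lists of receptors and of the other ITAM adaptor were called higher in both old groups. Of all genes tested, 13% were called higher in old early and 17% in old late inputs. Treml2 is among the 4 and could not pass the filter on low counts without the old libraries, so a lower call was hardly possible. Only 2 of the 10 other receptors reported to pair with Tyrobp or Hcst were tested in the inputs. Treml2, the 1 of 5 other TREM family receptors with enough counts, averaged 0.347 CPM in young, 0.7104 in old early and 0.761 in old late inputs and 15.01 CPM in TRAP (log2 fold change 0.99 in old early and 4.27 in TRAP, edgeR adjusted p 0.0423 and 2.39e-09). Clec5a, another receptor that signals through Tyrobp, averaged 2.06, 2.92, 3.37 and 71.4 CPM in the same order (0.49 in old early, edgeR adjusted p 0.0259). Fcer1g is the ITAM adaptor of Fc receptors. It averaged 5.02 ± 0.94 CPM in young (SD, n = 10), 8.84 ± 1.51 in old early (SD, n = 12), 10.4 ± 3.39 in old late and 271 ± 75.3 in TRAP libraries, in CPM (SD, n = 7 each). In log2 terms it changed by 0.82 ± 0.14 in old early animals (SE, edgeR adjusted p 5.13e-05) and 4.68 ± 0.17 in TRAP (SE, edgeR adjusted p 3.46e-13).

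Of the 5 genes for ligands and shedding, 3 rose in old early and the same number in old late inputs. Of all genes tested, 13% were called higher in old early and 17% in old late inputs. The lectin Lgals3, a reported Trem2 ligand, averaged 1.44 ± 0.62, 3.63 ± 1.25 and 4.93 ± 1.77 CPM in young, old early and old late inputs (SD), a log2 fold change of 1.34 ± 0.23 in old early animals (SE, edgeR adjusted p 8.45e-05). Relative to the microglial markers it was also higher in old early inputs (1.01, edgeR adjusted p 0.000111) but was lower in TRAP than in input (-1.14, adjusted p 0.00016). All 5 inhibitory receptors tested in inputs were higher in old late animals and 4 of 5 in old early animals, beside the same shares of all genes. Pirb and Lilrb4a are among them and could not pass the filter on low counts without the old libraries. A lower call was thus hardly possible for these genes. Pirb averaged 0.223, 0.809 and 0.939 CPM in young, old early and old late inputs (log2 fold change 1.83 ± 0.40 in old early, SE, edgeR adjusted p 0.00118), and Siglece 0.899, 1.19 and 1.42 CPM (0.41, adjusted p 0.118 in old early and 0.67, adjusted p 0.0148 in old late).

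The kinases and adaptors downstream were mixed. The counts of each list below stand against 13% of all genes called higher and 12.6% lower in old early inputs, and 17% and 17.5% in old late inputs. Of 7 Src family kinases, which phosphorylate the ITAM, 4 were higher and 1 lower in each old group. Fgr had 0 to 3 counts in each young library and 11 in all, against 108 in the 12 old early and 81 in the 7 old late inputs, a pooled rate ratio of 8.29 (95% exact interval 4.46 to 17.1) and 10.0 (5.33 to 20.9). Fgr passed the filter on low counts through the old inputs alone, so its call could only go higher. The Tec kinase Btk, which activates Plcg2, averaged 1.19, 1.75 and 1.76 CPM in young, old early and old late inputs (log2 fold change 0.54 in old early, edgeR adjusted p 0.0126).

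Of 13 adaptors and exchange factors, 3 rose and 4 fell in old early and 2 rose and 5 fell in old late inputs. The adaptor Lat2 rose from 1.96 ± 0.35 to 3.85 ± 0.96 and 4.83 ± 1.23 CPM (SD), by 0.97 ± 0.14 log2 in old early animals (SE, edgeR adjusted p 8.56e-06) beside 0.91 for Trem2 and 0.95 for Tyrobp. These differences between genes were not tested. Vav1, an exchange factor for Rac, averaged 5.54, 6.80 and 8.15 CPM (0.30, edgeR adjusted p 0.0193). Dok3, an inhibitory adaptor named after its values were seen, fell from 8.79 ± 1.01 to 4.71 ± 1.64 and 5.17 ± 1.29 CPM (SD), by 0.88 ± 0.15 log2 in old early animals (SE, edgeR adjusted p 6.76e-05), although it was higher in TRAP (1.78, adjusted p 8.12e-08).

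Of 11 genes for PI3 kinase and Akt, 2 rose and 0 fell in old early and 3 rose and 3 fell in old late inputs. The adaptor Pik3ap1 averaged 2.31, 3.34 and 3.31 CPM (0.53, edgeR adjusted p 0.025 in old early and 0.48, adjusted p 0.0611 in old late). Among 12 genes of the phospholipase C gamma arm, 3 rose in each old group, and 2 fell in old early and 3 in old late inputs. Rasgrp3, a Ras activator that binds diacylglycerol, averaged 10.1, 14.5 and 15.5 CPM (0.54, edgeR adjusted p 2.77e-05), and Card9 averaged 2.02, 2.26 and 2.05 CPM (0.16, adjusted p 0.514). Of 6 phosphatases, 3 rose and 1 fell in each old group. Ptpn6, the tyrosine phosphatase SHP-1 that opposes ITAM signals, averaged 3.86 ± 0.71, 6.72 ± 1.28 and 8.13 ± 1.60 CPM (SD), a log2 fold change of 0.80 ± 0.12 in old early animals (SE, edgeR adjusted p 1.07e-05). Inpp5d, which also opposes the pathway, was at 0.01.

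Relative to the microglial markers, 9 of the 66 pathway genes were higher and 35 lower in old early inputs, and 8 were higher and 37 lower in old late inputs. These are 13.6% higher and 53% lower in old early inputs, beside 1.61% and 73.9% of all genes, and 12.1% and 56.1% in old late inputs, beside 1.53% and 78.5%. Fgr, Pirb, Lgals3, Lat2, Fcer1g and Ptpn6 were higher on this scale in both old groups, with log2 fold changes in old early animals of 1.51 for Pirb, 1.01 for Lgals3, 0.65 for Lat2, 0.50 for Fcer1g and 0.47 for Ptpn6. Fgr and Pirb could not pass the filter on low counts without the old libraries, so a lower call was hardly possible for them. Btk, Vav1 and Clec5a were not called on this scale in either old group (log2 fold changes of -0.02 to 0.22).

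**Figure D5:**
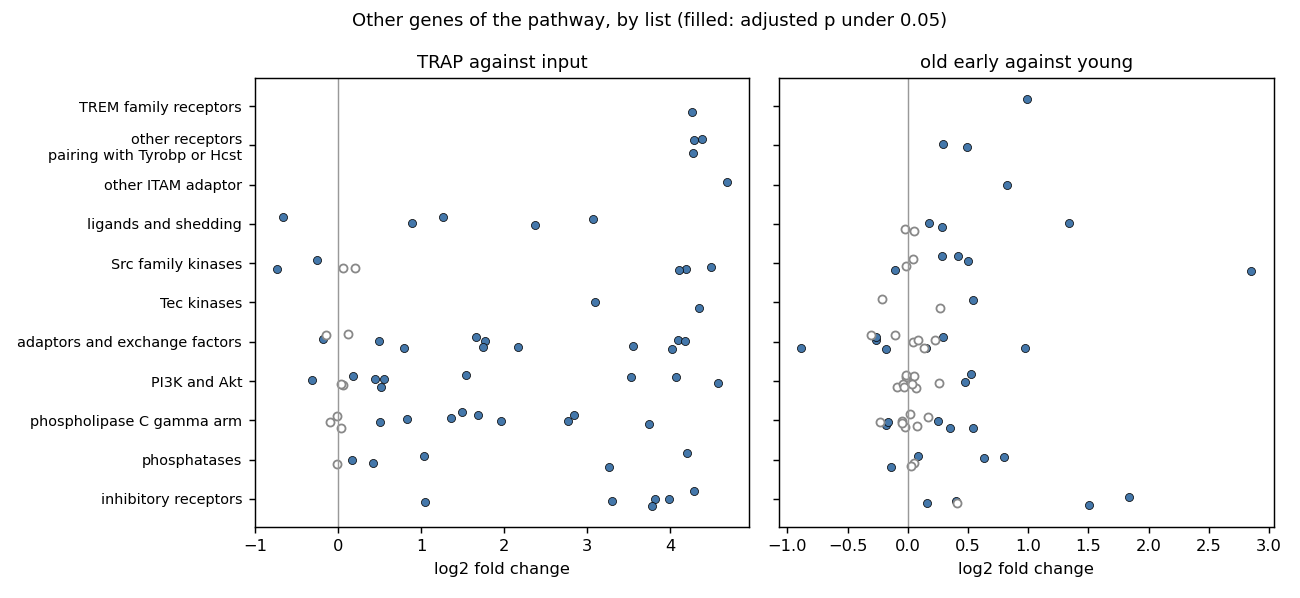
Log2 fold change (horizontal axes) of each tested gene of the 11 pathway lists (rows) in TRAP against input and in old early against young inputs, filled where the edgeR adjusted p was under 0.05. In TRAP 52 of 67 genes were called higher, while in old early inputs 27 of 66 were called higher and 8 lower.

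The genes whose levels varied most like each member among animals of the same group were read from deviations from the group mean over the 29 inputs and 13053 genes, as a description without a test. Tyrobp ran closest to C1qa (Pearson r 0.80), Mpeg1 (0.79), Cd68 (0.78), C1qc (0.78) and Gfap (0.78). Trem2 ran closest to Lbh (0.75), Pllp (0.72), S1pr2 (0.71), Ptprc (0.71) and Litaf (0.70). For Inpp5d the closest were Otud5 (0.76) and Pik3cg (0.74), for Plcg2 they were Dock1 (0.74), Wapal (0.70) and Abca8a (0.66), and for Syk they were Mrps35 (0.61), Fam110a (0.61) and Ntsr2 (0.60). The members were not each other's closest genes. Trem2 and Tyrobp had an r of 0.39, Tyrobp and Plcg2 0.37, Tyrobp and Inpp5d 0.32, and Syk and Plcg2 -0.32. These values share the depth and scaling of each library, and the lower-count members carry more counting noise.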

How the data were processed

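Polyadenylated RNA of 29 input and 7 TRAP libraries was measured. The values deposited by the authors for the 36 libraries are raw per the file headers and were read as estimated counts per gene with no normalization, in which 77.4% of nonzero values were not whole. The submitters' processing notes name mm10 and DESeq2 without a role; the aligner, the counter and the strand are not given in the sources used here. Counts were rounded and tested with edgeR 4.0.16 (R 4.3.3) by quasi-likelihood, with TMM scaling, filterByExpr at a minimum count of 10 and Benjamini-Hochberg adjustment over all genes at 0.05. TRAP was fitted on 14 libraries with sex, the input comparisons on 29 with group and sex, and age by sex on the 22 early-induced inputs. SE is the log2 fold change over the root of the F statistic. CPM used unrounded estimates and TMM sizes over all libraries. Marker-scaled fits replaced library size by the summed counts of 12 microglial markers. The script was tested on simulated data. Exact intervals cover counting error only. Alternatives were DESeq2 1.42.0, other scalings, filters and markers, subsets of libraries and leaving out each library in turn.

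The 6 members and the 80 pathway genes were chosen with earlier results of these data known. From each list the text names the called gene with the largest absolute log2 fold change in TRAP and in old early against young inputs. For likeness it names the 5 genes closest to Trem2 and Tyrobp and the 3 closest to each other member, among genes with an average log2 CPM over 1. Some genes that these rules name are not reported here. TRAP and input samples with the same number came from 1 animal, and their deviations from the group means correlated at 0.308 to 0.470 in the 7 pairs.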

Additional observations from a re-analysis of the deposited data

Results flagged for a closer look

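Among the 18 sets of 4 to 10 CPM values examined, 1 library stood far from the rest of its group. Inpp5d was at 17.5 CPM in young replicate 9, where the next highest young library was at 14.4 CPM, a gap of 0.604 of the group's range. Chance gives a gap large enough to be flagged in about 1 of 20 sets, or 0.9 of the 18.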

How the results depend on the processing

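Of the results recomputed with other settings, 562 kept their direction and side of the threshold, 10 counts moved, 2 reversed, 5 gained and 1 lost a call. With each library left out in turn, 2063 were kept, 9 moved, 11 reversed, 9 gained and 11 lost a call. The cause of these changes was not tested. With the replicate block for animal, Trem2 was at 4.31, Tyrobp at 4.46, Hcst at 4.46, Syk at 3.74, Plcg2 at 3.71 and Inpp5d at 4.08 log2 in TRAP, 53 pathway genes were higher and 5 lower, and no member's call changed. With the same block and marker scaling, chosen after seeing the data, 2 members were higher in TRAP (Trem2 gained its call at 0.17 log2) and 2 lower. Upper-quartile scaling gave 9 lower pathway genes in TRAP, where 6372 of all 14596 genes were lower. With females only, old early against young gave 12 higher and 1 lower pathway gene, old late against young 7 lower, and old late against old early 1 higher member and 3 lower pathway genes. Over all 14862 genes tested in females, 638 were called higher and 560 lower in old early against young. In old late against young 1396 were higher and 1391 lower, and in old late against old early 52 and 130. DESeq2 called 1 pathway gene higher in old late against old early and 1 lower in males. Without Cx3cr1, Csf1r and Aif1 among the markers, 2 members were higher in TRAP relative to them. In early-induced inputs alone, the sex differences of Trem2 and Syk turned to 0.034 and 0.038 log2.

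With 1 library left out, Inpp5d in old early against young ran from -0.025 to 0.034 log2 (below 0 at -0.0051 without young replicate 5, -0.025 without young replicate 8, and -0.0017, -0.00028 and -0.0035 without old early replicates 1, 5 and 12). Syk ran from -0.013 to 0.14 in old late against old early, from -0.080 to 0.0051 between the sexes (0.0036 without old late replicate 2, 0.0051 without young replicate 7) and from -0.0085 to 0.22 in age by sex. Trem2 ran from -0.063 to 0.0053 between the sexes (0.0053 without old late replicate 2, 0.00076 without old early replicate 9). Pathway genes called in old late against old early numbered 0 to 1 higher and 0 to 1 lower (1 each without old early replicate 2 or 5), and those lower in age by sex 0 to 3 (3 without old early replicate 6). Over all genes, the fits without old early replicates 2 and 5 called 24 and 67 higher and 52 and 97 lower in old late against old early. The fit without old early replicate 6 called 143 higher and 380 lower of 14520 genes in age by sex. Relative to the markers, 1 to 2 members were higher in TRAP (2 without TRAP replicate 7), 1 to 3 lower in old early (1 without young replicate 8, where Plcg2 had an edgeR adjusted p of 0.0647) and 1 to 3 lower in old late inputs (1 without old late replicate 1 or 2, where Inpp5d had 0.0531 and 0.0784). Marker-scaled Syk gained its old early call in 8 of these fits and lost its old late call in 6. Hcst had at most 8 counts per input, and what a greater depth would show was not tested.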
